A study of Mus musculus with 2 samples.

Results

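In mouse tumours, a set of cells with abundant Lyz2, the lysozyme gene of monocytes, macrophages and neutrophils, carried little RNA of C1q, of S100a8 and S100a9, or of the Ly6c2 set of recruited monocytes. These Ly6c2-low, C1q-low cells were chosen by thresholds on their own counts. A barcode needed at least 500 genes, at most 20% of its unique molecular identifiers (UMIs, counted RNA molecules) from mitochondrial genes, Lyz2 at 0.2% of UMIs or more, the complement genes C1qa, C1qb and C1qc under 0.3% together, and S100a8 and S100a9 under 0.5% together. It also needed fewer than 3 UMIs summed over Ly6c2, Plac8, Chil3, Ms4a4c and Ccr2, called the Ly6c2 set here. The rule took 423 of 13590 filtered barcodes, 129 in the control and 294 in the PKCi library. The cells were selected on those 11 genes, whose values are given as a description only. Fn1, Ppbp, Cxcl3 and Hmox1 were given as markers of these cells from earlier results of the same data, so their values are a description too.

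The tumours grew under the skin of wild-type C57BL/6 mice from CMT167R, a mouse lung carcinoma line, labelled anti-PD1 resistant. Mice received solvent (control) or the compound labelled PKCi at 3 mg/kg every day into the peritoneum, and the title of the series names PKC signalling, the apoptosis inhibitor XIAP and resistance to immunotherapy. Tumours were taken once the control ones had reached 400 mm3, when the labels give a difference in volume between the treatments, so tumour size and treatment cannot be told apart. Neither the age of the mice nor their number per library is given. With 1 library per treatment the differences have no replicate check and were not tested, and all intervals are 95% intervals that cover counting error only.

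Monocytes leave the blood in response to chemokines, enter tumours and turn into macrophages over days. On the way they lose the Ly6c2 set and gain macrophage genes such as C1q. In tumours, monocytic cells are known as sources of matrix proteins, proteases, arginase and chemokines for neutrophils, and they take up dying red cells and free the iron of their haem with haem oxygenase.

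The files hold 6688 control and 7457 PKCi barcodes with 222641855 and 229219749 UMIs. The libraries share 20 barcode sequences, 0 of them among these cells. The cells were shallower than the tumour cells around them, with medians of 10358 and 8279.5 UMIs and 2844 and 2610 genes, and their summed totals were 1803127 and 3738563 UMIs. Part of the barcodes carried RNA of the tumour line. Krt8, a keratin gene of simple epithelia, stood at 100 CPM or more (UMIs per 1000000 UMIs) in 30 control (23.3%) and 75 PKCi barcodes (25.5%), which held 36.2% and 44.9% of the UMIs. No UMI of the leukocyte gene Ptprc (CD45) was seen in 45 (34.9%) and 77 (26.2%) barcodes. The doublet caller Scrublet marked 7 (5.43%) and 27 (9.18%) of them, against 1.74% and 1.83% of all filtered barcodes. In the comparison of treatments, ratios of named genes are also given without the barcodes with Krt8 at 100 CPM or more. This was done where these barcodes move a value by over 1.5 times. In the marker check and the comparisons with neighbouring gates, levels are from all barcodes.

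Checked against markers, the cells carried myeloid RNA, of both monocyte and macrophage genes, beside RNA of the tumour line. Cd14, a receptor for bacterial lipopolysaccharide, stood at 1311 CPM in the control and 1320 CPM in the PKCi library, the integrin gene Itgam (CD11b) at 506 and 629 CPM, and the receptor gene Csf1r at 181 and 166 CPM. Defining genes of patrolling monocytes, which also lack Ly6c2, were close to 0 for Ace (2.77 and 1.34 CPM) and Treml4 (0.555 and 1.60 CPM), although Nr4a1 of that list stood at 209 and 402 CPM. The 6 macrophage markers summed to 9454 and 4178 CPM, mostly from Pf4, and in C1q-high cells they summed to 17290 and 11416 CPM. Other blood cells left little RNA. The 10 neutrophil markers summed to 36 and 20.9 CPM, with Ngp, Camp and Ly6g at 0 in both libraries, against 12544 and 13347 CPM in barcodes with high S100a8 and S100a9. The 6 T cell markers summed to 1.66 and 0.802 CPM and the 4 B cell markers to 0.555 and 0.802 CPM. Dendritic cell markers summed to 62.1 and 99.2 CPM, mostly from Fscn1, with Xcr1 and Siglech at 0 in both libraries. Fibroblast and pericyte markers summed to 189 and 95 CPM, led by Col3a1 at 85.4 and 47.9 CPM. The 5 tumour line markers summed to 265 and 342 CPM, mostly from Rhox5 (144 and 160 CPM) and Krt8 (120 and 182 CPM).

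Counts ran on without a gap across each threshold. Of the control cells 91 had no UMI of the Ly6c2 set, 19 had 1 UMI and 19 had 2 UMIs, while 22 barcodes just outside had 3 UMIs and 22 had 4 UMIs. In the PKCi library the same counts were 171, 69 and 54 inside and 52 and 28 outside. Lyz2 lay between 0.2% and 0.3% in 21 control and 46 PKCi cells, and between 0.1% and 0.2% in 39 and 83 barcodes just outside. C1q lay between 0.2% and 0.3% in 26 and 56 cells, and between 0.3% and 0.4% in 20 and 51 barcodes outside.

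Ly6c2-low, C1q-low cells took a larger share of the PKCi library. They made up 2.02% (129 of 6380, exact Clopper-Pearson interval 1.69 to 2.40) of filtered control barcodes and 4.08% (294 of 7210, 3.63 to 4.56) of filtered PKCi barcodes, a ratio of 2.02 (1.63 to 2.50). Within barcodes with Lyz2 at 0.2% or more they took 19.2% (16.3 to 22.4) and 28.1% (25.4 to 30.9), a ratio of 1.46 (1.18 to 1.81). Their nearest neighbours were cells that met every other limit but had 3 UMIs or more of the Ly6c2 set, called Ly6c2-set-positive. Those took 4.44% (3.94 to 4.97) and 3.90% (3.46 to 4.37) of filtered barcodes, a ratio of 0.879 (0.742 to 1.04), so among C1q-low monocytic barcodes the Ly6c2-low share went from 31.3% (26.9 to 36) to 51.1% (47.0 to 55.3). The other neighbours, cells with Lyz2 and with C1q at 0.3% or more (C1q-high), took 3.48% and 6.38%, a ratio of 1.83 (1.56 to 2.16). A gate on fewer than 3 UMIs takes shallow barcodes more easily, and the median depth of C1q-low monocytic barcodes was 7906.5 and 7668 UMIs. With the gate at 0 UMIs after thinning to 5000 UMIs, the log2 ratio of the shares was 0.80 in place of 1.01.

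**Figure D1:**
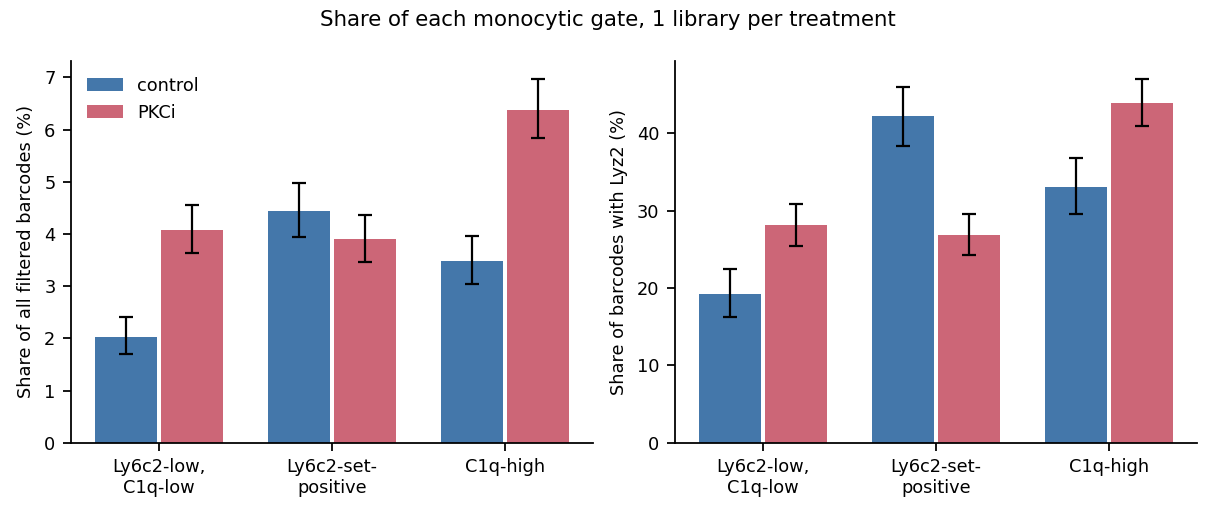
Bars give the share (%) of each monocytic gate in the control and PKCi libraries, of all filtered barcodes (left) and of barcodes with Lyz2 at 0.2% or more (right), with exact 95% intervals for counting error, 1 library per bar. Ly6c2-low, C1q-low cells stood at 2.02% and 4.08% of filtered barcodes, and Ly6c2-set-positive cells at 4.44% and 3.90%.

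Between treatments, Fn1 RNA was higher and RNA of many chemokine, haem, protease and lipid genes was lower in the PKCi library. Genes were read where both libraries together held 50 UMIs or more and at least 1 library reached 20 CPM, which left 6652 genes. Of these 636 (9.56%) were at least 1.5-fold higher in the PKCi library and 426 (6.40%) at least 1.5-fold lower. These 2 shares are the background for the counts in each gene list below. Past 2-fold there were 153 (2.30%) and 151 (2.27%). The median log2 ratio of PKCi over control was 0.10, and the central 90% of genes lay between -0.67 and 0.76. Some shifts ran through the whole library, so ratios in the neighbouring gates and in Krt8-high barcodes (Krt8 at 0.02% of UMIs or more, Lyz2 under 0.2%, 0 UMIs of Ptprc, 3341 and 3908 barcodes) are set beside them. Those gates come from the same 2 libraries and are not independent of them.

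**Figure D2:**
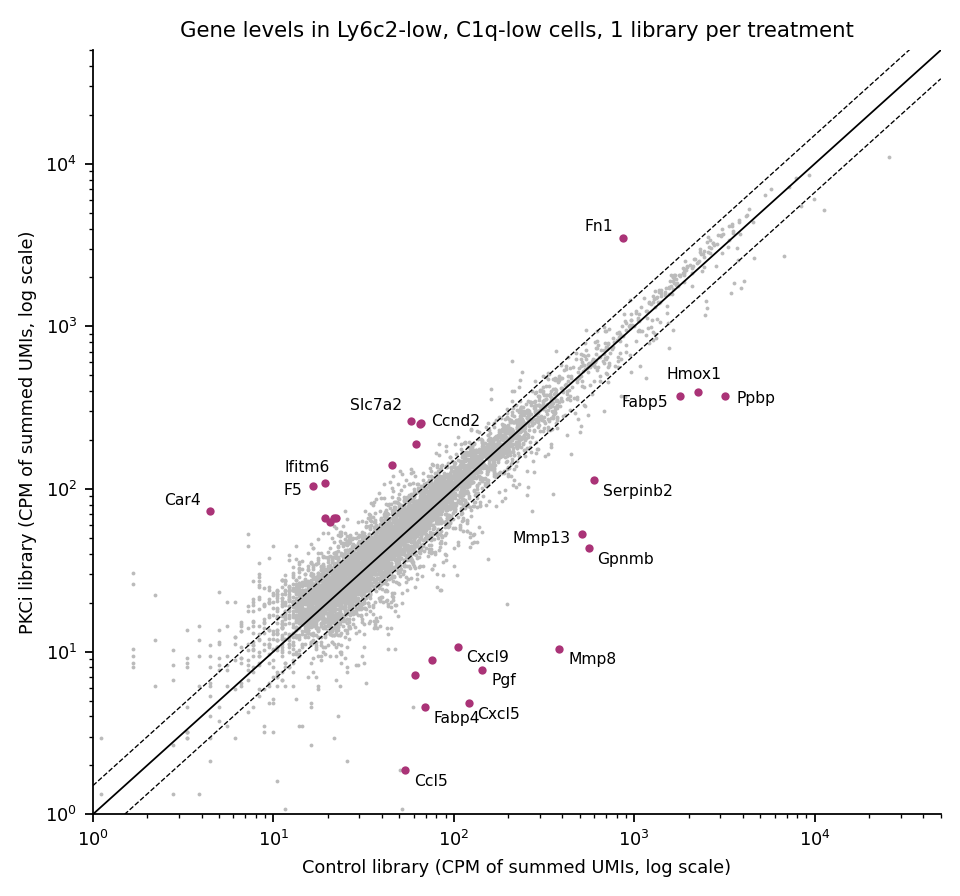
Each point is 1 gene, at its level in summed Ly6c2-low, C1q-low cells of the control (x axis) and PKCi library (y axis), both in CPM on log scales; the solid line marks equal levels, the dashed lines 1.5-fold, and dark points are 27 of the genes with the highest and lowest ratios. Fn1 lay far above the lines at 861 and 3506 CPM, and Ppbp, Hmox1 and Gpnmb far below.

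Fn1, the gene of fibronectin, a matrix protein that cells adhere to, was among the 14 genes with the highest ratios. In GRCm38 it spans 71585520 to 71653200 of chromosome 1 (minus strand). In control cells its level was 861 CPM (818 to 905). In PKCi cells it was 3506 CPM (3446 to 3566), 4.07 times as high (3.86 to 4.30). Most cells shared the difference. After thinning each cell to 5000 UMIs, which left 96 control and 213 PKCi cells, the median was 2 UMIs (quartiles 0 and 8.25) against 19.0 UMIs (8 and 32.0), and at least 1 UMI was seen in 72.9% (62.9 to 81.5) and 99.5% (97.4 to 100) of them. The log2 ratio was 2.03 here, 1.99 in Ly6c2-set-positive cells, 1.82 in C1q-high cells and 0.17 in Krt8-high barcodes, where Fn1 stood at 134 and 151 CPM. Fn1 was thus higher in all 3 monocytic gates, and the ratios were not tested against each other.

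The other genes at the top of the ranking encode coagulation, transport and membrane proteins among others, at lower levels. The coagulation factor gene F5 went from 16.6 to 104 CPM (ratio 6.24, 4.30 to 9.37), and 40.0% of its 30 control UMIs came from 1 barcode. Slc7a2, a transporter of arginine and other cationic amino acids, went from 58.2 to 261 CPM (4.49, 3.67 to 5.54). Both were also higher in PKCi C1q-high cells, with log2 ratios of 2.94 and 2.31. Ifitm6, an interferon-induced membrane protein gene, went from 19.4 to 109 CPM (5.62, 3.98 to 8.19) and was already high in Ly6c2-set-positive cells, at 214 and 256 CPM. The cell cycle gene Ccnd2 (cyclin D2) went from 64.9 to 251 CPM, a log2 ratio of 1.95 that became 3.40 without the barcodes with Krt8 at 100 CPM or more. In Krt8-high barcodes Ccnd2 stood at 165 and 207 CPM. The vitamin D receptor gene Vdr went from 21.6 to 66.3 CPM and was seen in 29 control and 126 PKCi cells. By the mean of each cell's CPM the log2 ratio of Vdr was 0.83 in place of 1.60. Those of Ifitm6 and Ccnd2 were larger by that measure, at 2.90 and 2.55.

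For several of these genes 1 barcode held much of the few control UMIs. Their ratios were larger with the top barcode of each library left out, and smaller by the mean of each cell's CPM. Car4, a carbonic anhydrase gene, had the highest ratio, 16.4 (8.20 to 38.4), but its 8 control UMIs lay in 2 barcodes and its 272 PKCi UMIs in 32. Its log2 ratio was 3.95, and 5.36 without the top barcodes. Lyz1, a near copy of Lyz2 whose reads are hard to assign, went from 66.0 to 253 CPM, and 1 barcode held 63.9% of its control UMIs. Without the top barcodes its log2 ratio was 3.21 in place of 1.93. Vsig8 (19.4 and 66.1 CPM) had 60.0% of its control UMIs in 1 barcode and Tiam2 (45.5 and 141 CPM) had 37.8%. Their log2 ratios went from 1.75 to 2.85 and from 1.62 to 2.13, and that of F5 from 2.62 to 3.25. By the mean of each cell's CPM the log2 ratios were 1.59 for Car4, 0.95 for Lyz1 and 1.38 for Vsig8. Those of Tiam2 and F5 were then 1.05 and 2.48. Glipr2, Plxdc2 and Ldlrad4 completed the set, with ratios of 3.08, 3.05 and 2.98. The log2 ratio of Ldlrad4 was 1.56, and 2.43 without the barcodes with Krt8 at 100 CPM or more.

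The 5 CXCR2 ligand genes, which encode the chemokines that draw neutrophils through the receptor CXCR2, were all at least 1.5-fold lower in the PKCi library, where 6.40% of genes read were. Their median log2 ratio was -0.97 against 0.10 over all genes read, and it was also -0.97 without the barcodes with Krt8 at 100 CPM or more. The median was as low or lower in the other gates of the PKCi library, at -1.07 in Ly6c2-set-positive cells, -1.58 in C1q-high cells and -1.47 in Krt8-high barcodes. Ppbp (CXCL7), also known from platelets, went from 3196 CPM (3114 to 3279) to 371 CPM (351 to 391), 8.62-fold lower. Cxcl3 went from 3580 to 1858 CPM, Cxcl1 from 2539 to 1299 CPM and Cxcl2 from 8380 to 5465 CPM. Cxcl5 went from 121 to 4.81 CPM, with 44.0% of its control UMIs in 1 barcode, and its log2 ratio was -5.21 without the barcodes with Krt8 at 100 CPM or more in place of -4.61. Ppbp and Cxcl5 therefore stood apart in size from the other 3, whose levels differed 1.95-fold at most. The platelet markers summed to 4.99 and 3.74 CPM, with Gp9, Gp1bb and Gp1ba at 0 in both libraries.

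These genes lie in the same region of chromosome 5 of GRCm38, all on the plus strand. Cxcl5 lies at 90759360 to 90761624, Ppbp at 90768518 to 90770063 and the related chemokine gene Pf4 at 90772435 to 90773383. Cxcl3 lies at 90786103 to 90789600, Cxcl1 at 90891241 to 90893115 and Cxcl2 at 90903871 to 90905938. The 250 bases before the RefSeq start of 4 of them are shown because they moved in the same direction by different amounts. Cxcl5 moved in that direction too, but it was missing from the sequence set used, so its window was not searched. They are from GRCm38.p6, plus strand, at chr5:90768268-90768517 (Ppbp), chr5:90785851-90786100 (Cxcl3), chr5:90890995-90891244 (Cxcl1) and chr5:90903649-90903898 (Cxcl2). Capitals mark matches to the NF-kB consensus, or in Ppbp to the AP-1 motif TGANTCA, searched on both strands together with the C/EBP motif TTGCNNAA.
Ppbp: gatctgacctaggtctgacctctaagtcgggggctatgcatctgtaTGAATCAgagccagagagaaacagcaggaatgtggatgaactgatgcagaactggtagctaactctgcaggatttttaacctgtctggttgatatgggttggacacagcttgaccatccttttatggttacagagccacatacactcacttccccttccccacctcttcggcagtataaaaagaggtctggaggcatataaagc
Cxcl3: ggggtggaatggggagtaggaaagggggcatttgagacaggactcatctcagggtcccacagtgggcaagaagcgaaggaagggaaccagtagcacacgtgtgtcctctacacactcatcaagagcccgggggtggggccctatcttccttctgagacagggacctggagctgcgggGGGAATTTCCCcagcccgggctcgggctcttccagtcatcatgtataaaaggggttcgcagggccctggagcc
Cxcl1: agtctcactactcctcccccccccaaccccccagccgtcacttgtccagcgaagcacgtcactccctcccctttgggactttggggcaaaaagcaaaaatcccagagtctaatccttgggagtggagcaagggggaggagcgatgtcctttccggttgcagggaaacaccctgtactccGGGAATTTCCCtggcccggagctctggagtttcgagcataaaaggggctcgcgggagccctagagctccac
Cxcl2: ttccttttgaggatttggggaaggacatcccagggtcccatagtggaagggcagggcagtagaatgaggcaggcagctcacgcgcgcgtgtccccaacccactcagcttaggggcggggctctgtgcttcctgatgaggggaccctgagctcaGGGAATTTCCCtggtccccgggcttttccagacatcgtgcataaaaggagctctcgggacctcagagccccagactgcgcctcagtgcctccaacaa

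The NF-kB match ended 61 bases before the start in Cxcl1, 87 in Cxcl2 and 63 in Cxcl3, and on both strands the matches overlapped. Of 32851 RefSeq windows of that length 7.25% held such a match. The AP-1 match of Ppbp lay 204 to 198 bases before the start, and 6.75% of windows held one. The C/EBP letters, present in 9.56% of windows, were in none of the 4. A match of letters is a description of the window and does not show that a factor binds there. Of 18 measured NF-kB feedback and target genes, 1 was at least 1.5-fold higher and 2 lower in the PKCi library, with a median log2 ratio of 0.06. The shares over all genes read were 9.56% higher and 6.40% lower. The inhibitor gene Nfkbia stood at 1741 and 1777 CPM.

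Chemokines for other cells were also mostly lower. Of 16 measured, 9 were at least 1.5-fold lower and 2 higher, with a median log2 ratio of -0.82. Pf4 (CXCL4), which is also a macrophage marker, went from 6739 to 2708 CPM, Ccl4 from 1567 to 733 CPM and Ccl7 from 1639 to 954 CPM. Ccl8 and Ccl12, ligands for monocytes and T cells, went from 273 to 73.0 and from 353 to 93.6 CPM. Ccl6, at 5273 and 6444 CPM, and Ccl9, at 2079 and 1760 CPM, stayed within 1.5-fold. Cxcl9, a T cell chemokine induced by interferon gamma, went from 105 to 10.7 CPM, with 45.8% of its control UMIs in 1 barcode. Its log2 ratio was -3.29, and -1.64 without the barcodes with Krt8 at 100 CPM or more. Ccl5, another T cell chemokine, stood at 53.8 and 1.87 CPM, with 82.5% of its control UMIs in 1 barcode. Its log2 ratio was -4.75, and it was -2.48 without the top barcodes and -3.08 without the barcodes with Krt8 at 100 CPM or more. Ccl17 was higher, at 0.555 CPM (1 UMI) and 48.4 CPM, with 39.2% of its PKCi UMIs in 1 barcode, and without the barcodes with Krt8 at 100 CPM or more it stood at 0 and 86.9 CPM. All 9 lower genes were also lower in Ly6c2-set-positive cells, with log2 ratios from -3.01 to -0.64. In C1q-high cells Ccl5 was higher, with a log2 ratio of 3.25, and Cxcl16 stood at 0.03. The median of the list was -0.72 in Ly6c2-set-positive cells, -0.06 in C1q-high cells and 0.47 in Krt8-high barcodes.

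Haem and iron genes were mostly lower too. Haem oxygenase, encoded by Hmox1 on chromosome 8 (75093621 to 75100589, plus strand), splits haem and frees its iron, and ferritin stores it. Hmox1 went from 2267 CPM (2198 to 2337) to 395 CPM (375 to 415), 5.74-fold lower. The ferritin genes Fth1 and Ftl1 went from 25657 to 11071 and from 11213 to 5181 CPM. Slc48a1, a haem transporter, went from 130 to 47.3 CPM, and Ncoa4, which hands ferritin to autophagy, from 104 to 29.4 CPM. Tfrc, the transferrin receptor that brings iron in, was higher, at 18.9 and 54.0 CPM. In all, 8 of 13 measured genes were at least 1.5-fold lower and 1 higher, with a median log2 ratio of -0.92. In Ly6c2-set-positive, C1q-high and Krt8-high barcodes that median was -0.47, -0.39 and -0.26. Hmox1 was lower in each gate of the PKCi library, with log2 ratios of -2.52 here, -2.30 in Ly6c2-set-positive, -1.69 in C1q-high and -2.06 in Krt8-high barcodes, the last at 36.3 and 8.73 CPM. Ncoa4 was not, with log2 ratios of 0.18 and 0.15 in the 2 monocytic neighbours. The red cell markers summed to 14.4 and 0.267 CPM, and their part in the result was not tested.

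**Figure D3:**
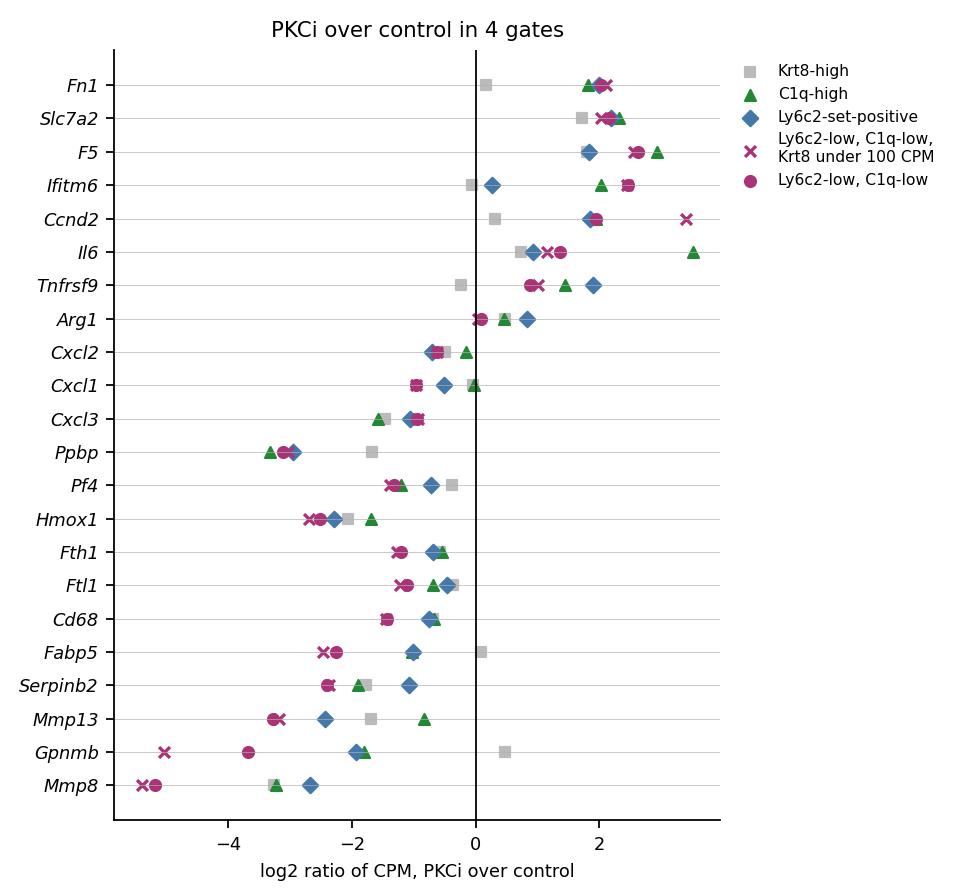
The x axis gives the log2 ratio of CPM, PKCi over control, of 22 genes (y axis) in Ly6c2-low, C1q-low cells with all barcodes (circles) and without those with Krt8 at 100 CPM or more (crosses), in Ly6c2-set-positive (diamonds) and C1q-high cells (triangles) and in Krt8-high barcodes (squares). Fn1 was about equally shifted in the 3 monocytic gates, at 2.03, 1.99 and 1.82, while Gpnmb was shifted most in Ly6c2-low, C1q-low cells, at -3.69 against -1.93 and -1.80.

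Genes of maturing and lipid-loaded macrophages were lower as well. Of 17 measured macrophage maturation genes, 13 were at least 1.5-fold lower and 1 higher, with a median log2 ratio of -0.95 here, -0.49 in Ly6c2-set-positive and -0.19 in C1q-high cells. The lysosomal membrane gene Cd68 went from 445 to 164 CPM, the lipid carrier gene Apoe from 1165 to 483 CPM, and Adgre1 (F4/80) from 90.4 to 36.4 CPM. Ms4a7 went from 61.0 to 7.22 CPM. The protease gene Ctsd stayed level, at 1881 and 1887 CPM, and Axl, a receptor that clears dying cells, was higher at 39.4 and 87.5 CPM. The log2 ratio of Axl was 1.14, and 2.15 without the barcodes with Krt8 at 100 CPM or more.

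Of 17 measured genes known from lipid-associated macrophages, 10 were at least 1.5-fold lower and 0 higher, with a median log2 ratio of -0.81 here, -0.03 in Ly6c2-set-positive cells, -0.20 in C1q-high cells and 0.11 in Krt8-high barcodes. Gpnmb, a membrane glycoprotein of macrophages under lysosomal load, went from 559 CPM (525 to 595) to 43.3 CPM (36.9 to 50.5), 12.9-fold lower. Without the barcodes with Krt8 at 100 CPM or more its log2 ratio was -5.04 in place of -3.69. In Krt8-high barcodes Gpnmb stood at 51.3 and 71.4 CPM, above the PKCi level of these cells. The fatty acid carrier genes Fabp5 and Fabp4 went from 1785 to 372 and from 69.3 to 4.55 CPM, and the lipid droplet gene Plin2 from 886 to 370 CPM. The galectin gene Lgals3 went from 3921 to 1713 CPM and the protease genes Ctsl and Ctsb from 4082 to 1915 and from 2465 to 1170 CPM. Lpl, Cd36 and Cd9 stayed within 1.5-fold.

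Matrix genes split. Of 28 measured matrix, adhesion and coagulation genes, 5 were at least 1.5-fold higher and 8 lower, and the median log2 ratio was 0.05. The shares over all genes read were 9.56% higher and 6.40% lower. Besides Fn1 and F5, the proteoglycan gene Vcan went from 83.2 to 190 CPM, the metalloprotease gene Mmp19 from 48.8 to 108 CPM and F3 (tissue factor) from 23.8 to 54.6 CPM. The metalloprotease genes Mmp8, Mmp9, Mmp12 and Mmp13 were lower, and Mmp14 stayed within 1.5-fold at 215 and 163 CPM. Mmp8, a collagenase best known from neutrophils, went from 384 CPM (356 to 414) to 10.4 CPM (7.42 to 14.3), 36.8-fold lower. It was seen in 59 control and 22 PKCi cells, and no control barcode held more than 7.07% of its UMIs. Mmp13 went from 511 to 52.7 CPM, Mmp12 from 3450 to 1604 CPM and Mmp9 from 1080 to 568 CPM. Serpinb2, an inhibitor of plasminogen activators, went from 601 to 113 CPM, and the secreted matrix protein gene Spp1 (osteopontin) from 4600 to 2625 CPM. Thbs1 (thrombospondin) stayed close, at 2335 and 2781 CPM. Pgf, a growth factor of the VEGF family, went from 144 to 7.76 CPM. Mastl, the remaining named gene, stood at 75.4 and 8.83 CPM, but 91.9% of its control UMIs came from 1 barcode and without the top barcodes the log2 ratio was 0.31. Without the barcodes with Krt8 at 100 CPM or more it was -4.76 in place of -3.08.

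A smaller share of PKCi cells had a UMI of Hmox1, Ppbp or Gpnmb, a share that itself depends on the level of the gene. In cells thinned to 5000 UMIs, Ppbp had at least 1 UMI in 60.4% (49.9 to 70.3) of cells from the control and 25.4% (19.7 to 31.7) from the PKCi library. Hmox1 was seen in 78.1% (68.5 to 85.9) and 39.9% (33.3 to 46.8), and Gpnmb in 60.4% (49.9 to 70.3) and 12.7% (8.52 to 17.9). Cxcl3 was seen in 85.4% (76.7 to 91.8) and 71.4% (64.8 to 77.3). The unthinned CPM moved the same way for each of the 4 genes. In Krt8-high barcodes, with medians of 38329 and 35640 UMIs, Ppbp was seen in 2.41% and 0.397% after the same thinning, Hmox1 in 12.4% and 4.26%, Cxcl3 in 6.55% and 2.25% and Gpnmb in 20.3% and 25.9%. Gpnmb was thus seen in a smaller share of these PKCi cells than of Krt8-high barcodes. Whether Krt8-high barcodes express Gpnmb themselves was not tested, so they set no background level for it.

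**Figure D4:**
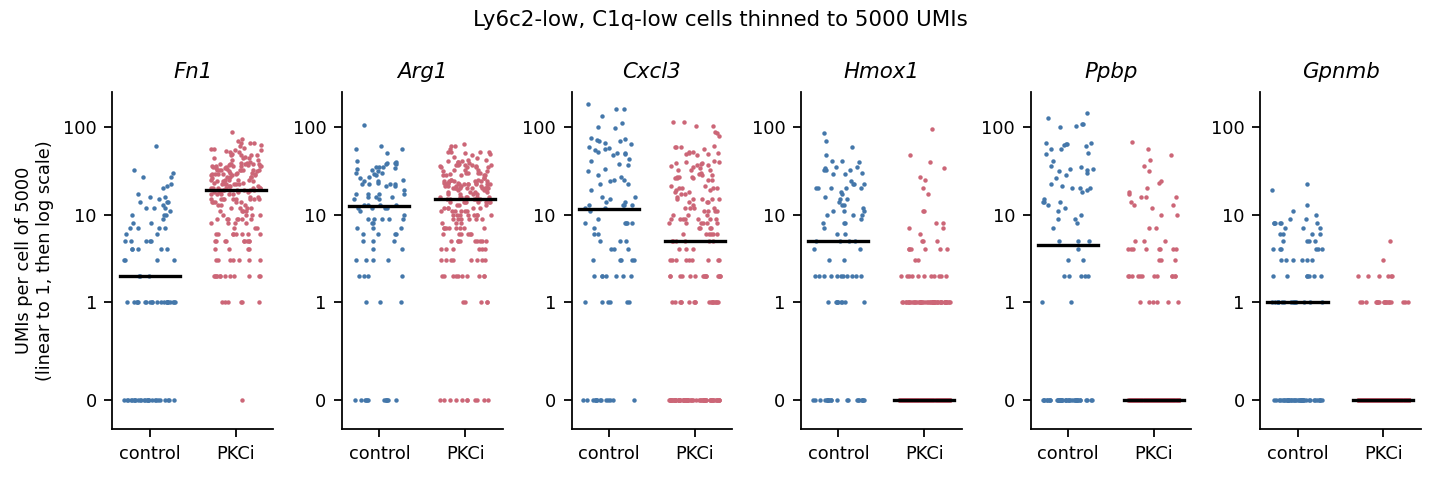
Each point is 1 Ly6c2-low, C1q-low cell thinned to 5000 UMIs, with the UMIs of the gene on the y axis (linear to 1, log scale above) and the library on the x axis (96 control and 213 PKCi cells); black lines are medians. The median of Fn1 was 2 in control and 19.0 in PKCi cells, that of Ppbp 4.50 and 0, and that of Arg1 12.5 and 15.0.

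Other genes were ranked by how closely they followed Ppbp from cell to cell. Over thinned control cells, the genes most like Ppbp by Spearman's rho were the lysosomal protease genes Ctsd (0.63), Ctsb (0.62) and Ctsl (0.59), then Gpnmb (0.57). Psap (0.52), Pf4 (0.51) and Lgmn (0.50) followed. Of the 58 control cells with a UMI of Ppbp, 81.0% also had Gpnmb and 91.4% Fabp5, against 28.9% and 52.6% of the 38 cells without. For Fn1 the shares were 70.7% and 76.3%. In PKCi cells Pf4 (0.53), Mmp9 (0.43) and Lgmn (0.43) were most like Ppbp, followed by Ctsl (0.40) and Ctsb (0.38). Gpnmb, seen in 12.7% of thinned PKCi cells, fell below the minimum share of cells for ranking, so its place there is not known. Fabp5 was not among the first 8 in either library. Of the 54 PKCi cells with a UMI of Ppbp, 22.2% (12.0 to 35.6) also had Gpnmb and 74.1% (60.3 to 85.0) Fabp5. Of the 159 without, 9.43% (5.38 to 15.1) and 52.8% (44.8 to 60.8) did. Both genes were thus again seen more often in cells with Ppbp. The intervals overlap, which does not decide whether the shares differ, and the difference was not tested. Hmox1 was most like the ferritin genes Ftl1 (0.65) and Fth1 (0.58) in control cells and like Mt1 and Ctsb (0.41 each) in PKCi cells. Ftl1 was close behind in PKCi cells (0.39), and Mt1 was among the first 8 in control cells (0.44). These correlations describe cells of 1 library each, which share that library's free RNA, and were chosen after the values were seen.

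Not every inflammatory or suppressive gene was lower. Of 17 measured cytokine and growth factor genes, 2 were at least 1.5-fold higher and 5 lower, with a median log2 ratio of -0.23. The shares over all genes read were 9.56% higher and 6.40% lower. Il1b, the gene of interleukin 1 beta, stood at 1881 and 2061 CPM, and Ptgs2 (cyclooxygenase 2) at 637 and 651 CPM. Tnf went from 230 to 108 CPM and the anti-inflammatory Il10 from 25.5 to 2.14 CPM (32.2 to 0.971 CPM without the barcodes with Krt8 at 100 CPM or more), while Il6 went from 50.5 to 130 CPM. Of the control Il6 UMIs 31.9% came from 1 barcode. Arg1, the arginase gene of suppressive myeloid cells, stood at 2646 and 2824 CPM and was seen in 87.5% and 94.8% of thinned cells. Of 11 measured genes of alternative activation and arginine use, 3 were higher and 3 lower. Retnla, one of the 3, had 1 UMI in the control (0.555 CPM) and 24.6 CPM in the PKCi library, 63.0% of it from 1 barcode, and without the barcodes with Krt8 at 100 CPM or more it stood at 0 and 35.4 CPM.

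Genes that face T cells moved in both directions, with list medians from -0.33 to 0.31. Of 13 measured checkpoint and costimulation genes, 3 were at least 1.5-fold higher and 1 lower, with a median log2 ratio of 0.02. Over all genes read, 9.56% were at least 1.5-fold higher and 6.40% lower. The costimulatory receptor gene Tnfrsf9 (4-1BB) went from 230 to 425 CPM, and Cd80, a ligand of CD28 and CTLA4, from 90.4 to 172 CPM. Cd274 (PD-L1) stood at 210 and 152 CPM and Cd86 at 214 and 217 CPM. Of 7 measured MHC class II genes, 2 (H2-DMa and H2-DMb1) were at least 1.5-fold higher and 0 lower, with a median log2 ratio of 0.31. That median was -0.27 with the gate at 0 UMIs after thinning. Cd74, the invariant chain, stood at 722 and 960 CPM. Of 8 type I interferon genes measured 0 were higher and 2 lower, and of 11 interferon gamma genes 1 was higher and 3 lower, the medians being -0.33 and 0.09.

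Among signalling and stress genes, the early response genes Klf4 (239 and 526 CPM), Fosb (369 and 705 CPM) and Nr4a1 (209 and 402 CPM), transcription factors induced within minutes of a stimulus, were higher. They belong to a list of 22 measured genes with 6 higher and 1 lower, and a median log2 ratio of 0.17. The shares over all genes read were 9.56% higher and 6.40% lower. Klf4, Fosb and Nr4a1 were also higher in Krt8-high barcodes, with log2 ratios of 0.96, 0.66 and 0.48. Nr4a1 had log2 ratios of 0.72 in Ly6c2-set-positive and 1.21 in C1q-high cells, against 0.94 here. The list median was 0.20 and 0.62 in those 2 gates. None of 10 dissociation and heat shock genes passed 1.5-fold in either direction, nor did any of 9 measured PKC isoform and XIAP genes. Xiap stood at 59.9 and 69.8 CPM and the PKC delta gene Prkcd at 115 and 151 CPM. Of 22 hypoxia and glycolysis genes, 0 were higher and 4 lower, with Slc2a1 (the glucose transporter GLUT1) at 322 and 159 CPM and Vegfa at 324 and 379 CPM. Of 15 NRF2 target and redox genes, 0 were higher and 2 lower, and Nfe2l2, the gene of NRF2, stood at 296 and 366 CPM.

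The cell cycle lists were higher by summed UMIs, while the intervals of the shares of cycling cells overlapped. Of 19 measured G2/M genes, 12 were at least 1.5-fold higher and 0 lower, with a median log2 ratio of 0.69, and of 16 S phase genes 6 were higher and 0 lower, with 0.38. Without the barcodes with Krt8 at 100 CPM or more the counts of higher genes were 10 and 10. The G2/M median was -0.63 without the barcodes called by Scrublet, -0.05 by the mean of each cell's CPM and -0.04 without the barcodes over 30000 UMIs. After thinning, 23 of 96 control cells (24%, interval 15.8 to 33.7) and 64 of 213 PKCi cells (30.0%, interval 24 to 36.7) had UMIs of at least 3 S phase genes. At least 3 G2/M genes were seen in 25% (24 of 96 cells, 16.7 to 34.9) and 28.6% (61 of 213, 22.7 to 35.2), and in 53.5% and 41.8% without thinning. Without the barcodes with Krt8 at 100 CPM or more the thinned G2/M shares were 11.7% (5.49 to 21.0) and 18.8% (13 to 25.7). In Krt8-high barcodes they were 76.4% and 77.7%.

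**Figure D5:**
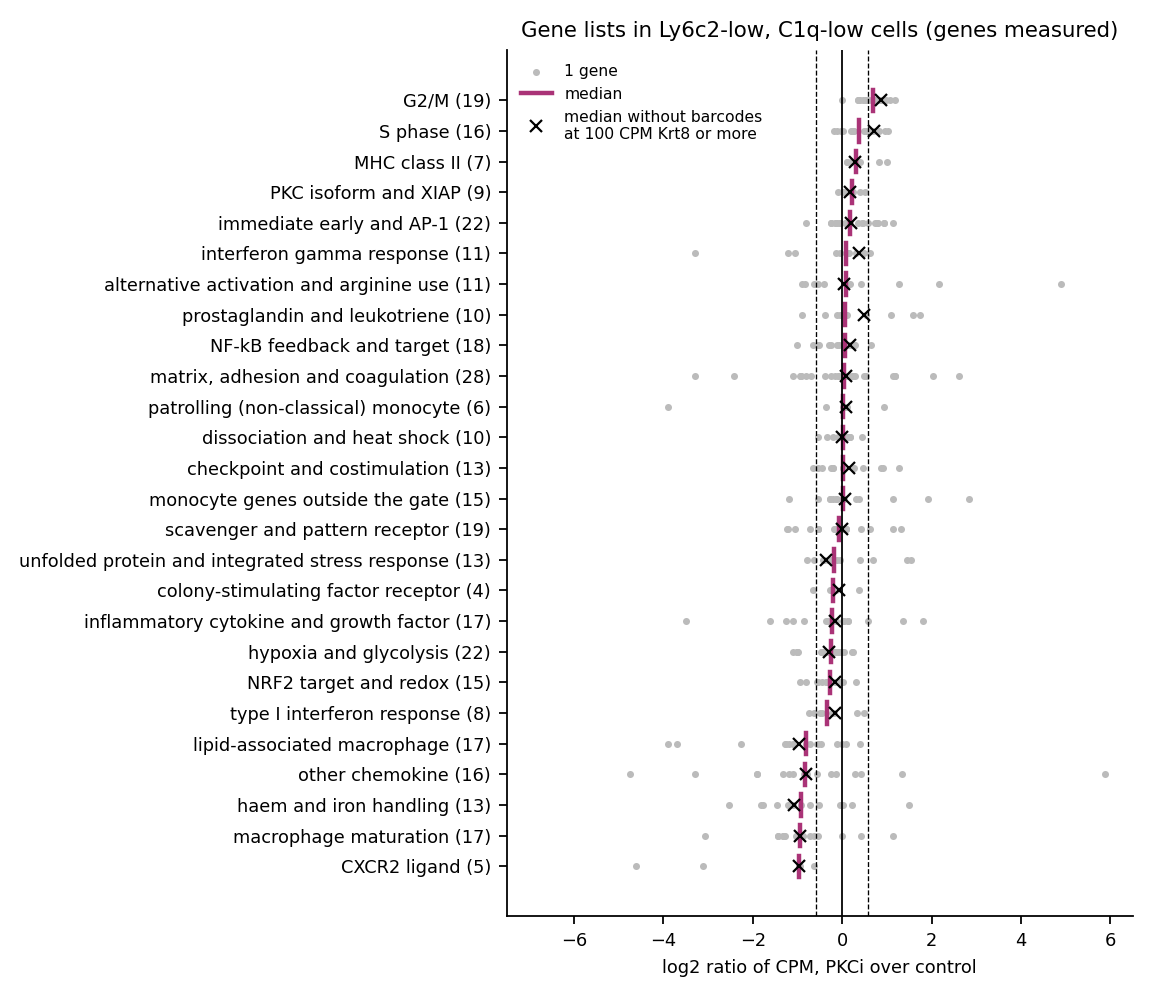
Rows are gene lists, with the number of genes measured in brackets, and the x axis is the log2 ratio of CPM, PKCi over control, in Ly6c2-low, C1q-low cells; dots are genes, bars list medians, crosses medians without the barcodes with Krt8 at 100 CPM or more, and dashed lines 1.5-fold. The CXCR2 ligand, macrophage maturation, haem and iron, other chemokine and lipid-associated lists lay lowest, with medians from -0.97 to -0.81.

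Against Ly6c2-set-positive cells, 117 of 6940 genes read (1.69%) were at least 2-fold higher and 126 (1.82%) at least 2-fold lower in both libraries. The gate used only the Ly6c2 set, but the cells were separated by it, so these values are a description. Ppbp had 3196 CPM in control and 371 CPM in PKCi cells, against 544 and 69.8 CPM in the neighbours, and Hmox1 at 2267 and 395 CPM against 492 and 99.6 CPM. Mmp12, a macrophage elastase, stood at 3450 and 1604 against 631 and 435 CPM. Rgs1, a brake on chemokine receptors, stood at 333 and 165 against 99.3 and 59.8 CPM, and the fatty acid receptor gene Cd36 at 212 and 226 against 79.7 and 95.3 CPM. Ppbp and Hmox1 thus differed both between these 2 gates and between the libraries. C1q-high cells were within 2-fold of the levels here, with Ppbp at 2019 and 202 CPM and Hmox1 at 1302 and 402 CPM. Timp2, Wfdc17, Serpinb6a, Csf1 and Mast4 were the other genes named higher, and the last 3 stood higher still in Krt8-high barcodes, at 264, 501 and 260 CPM in the control library. Lower genes included the interferon-induced Ifi27l2a, with 62.7 and 69.3 CPM against 835 and 385 CPM, and Vcan, at 83.2 and 190 against 362 and 549 CPM. Ms4a6c, Napsa, Arhgap26, Gngt2, Nrg1, Lst1 and Cytip were also lower.

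Against C1q-high cells, 246 of 7100 genes read (3.46%) were at least 2-fold higher and 187 (2.63%) lower in both libraries. Cxcl3 had 3580 and 1858 CPM where C1q-high cells had 1002 and 335 CPM, Slpi, a secreted inhibitor of neutrophil elastase, at 354 and 280 against 31.1 and 26.4 CPM, and Inhba, the activin A subunit gene, at 248 and 225 against 25 and 43.6 CPM. Tnfrsf9 stood at 230 and 425 against 47.4 and 130 CPM, and Serpinb2 at 601 and 113 against 129 and 34.3 CPM. Sgms2, AA467197, Mast4, Hmga2 and Syne2 were also higher, and the last 3 stood at 260, 732 and 346 CPM in control Krt8-high barcodes. Among lower genes Ccl8 stood at 273 and 73.0 against 2474 and 1156 CPM, the selenium carrier gene Selenop at 258 and 103 against 1093 and 835 CPM, Gas6, the ligand of Axl, at 42.1 and 20.6 against 217 and 212 CPM, and Pltp at 34.9 and 41.7 against 205 and 218 CPM. Cbr2, Fcgrt, Fcna, Ms4a7, Ccl12 and Frmd4b completed the lower genes.

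The first axis of variation among the cells went with depth and Krt8. In 348 cells with at least 3000 UMIs, centred within each library, the first principal component took 5.46% of the variance of 4151 genes and had a Spearman's rho of 0.62 with depth and 0.50 with Krt8. Its positive end was led by Cald1, Mast4, Ank3, Map1b, Gli3, Kcnq5, Pvt1 and Nedd4, and its negative end by the leukocyte genes Srgn, Fcer1g, Cebpb, Tyrobp, Btg1, Cd14, Thbs1 and Basp1. The second took 3.26%, with a rho of 0.12 with depth. It ran from Malat1, Picalm, Zeb2, Abca1, Iqgap1, Osbpl8, Rbpj and Gab2 to genes of small abundant transcripts, Nme2, S100a6, Btf3, Ubb, Fau, Ppia, Eif5a and Cox4i1.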

How the data were processed

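Droplet 3' single-cell RNA of dissociated tumours was counted by the authors with Cell Ranger 7.0.0, per the file headers, and the deposited matrices hold raw UMI counts per gene and barcode. The submitters' processing notes name GRCm38, Cell Ranger and Seurat, the last with no stated role, and no filter or doublet removal beyond Cell Ranger is given in the sources used here. Everything else was computed from those counts with Python 3.11.15, numpy 2.4.6, scipy 1.17.1, pandas 2.3.3 and scanpy 1.11.5 (Scrublet, run per library).

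Doublet calls were kept in the main values and removed in an alternative. The UMIs of all cells in a gate were added up and scaled to CPM with exact Poisson intervals; ratios have exact conditional intervals, and log2 ratios have 0.5 counts added per sum. With 1 library per treatment, called means at least 1.5-fold (treatments) or at least 2-fold in both libraries (gates). Shares have exact Clopper-Pearson intervals. UMIs within a cell are not independent, so intervals cover counting error only. The code for fold calls and ratio intervals was tested on simulated sums with known folds. Those sums were drawn as independent counts, so the test does not cover the spread between cells.

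Sequences and gene starts are from RefSeq and gene coordinates from GENCODE, both on GRCm38. Named genes are the 14 highest and 14 lowest treatment ratios (100 UMIs or more in all, 50 CPM or more in either library, 2-fold, 10% or more of the highest gate), the 10 highest and 10 lowest against each neighbouring gate, markers, the leading component genes, and of each list the 4 with the largest change at 50 CPM or more and the 2 of highest level. Genes of mitochondria, ribosomes, haemoglobins and antigen receptors, Xist, Y-linked, predicted and rule genes were not ranked, and 38 symbols carried by 2 gene IDs were kept as separate genes. Ccl4, Ccl7, Ccl9, Ccl17, Cd86, Cd9, Ctsb, Cxcl16, F3, Il10, Lgals3, Lgmn, Lpl, Mmp9, Mmp14, Mmp19, Nfe2l2, Plin2, Retnla and Vegfa fall outside that rule and were chosen after their values were seen. Some genes that the rule names are not reported here. Reads of one gene and a near copy cannot be told apart in these counts. The cells, gates and gene lists were chosen with earlier results of these data known.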

Additional observations from a re-analysis of the deposited data

Results flagged for a closer look

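For 8 results the PKCi library was at least 1.5-fold away from the control one way in Ly6c2-low, C1q-low cells and at least 1.5-fold the other way in C1q-high cells. With 1 library per treatment these differences between gates were not tested.

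Cell cycle genes made up most of them. The median log2 ratio of the G2/M list was 0.69 here and -0.59 in C1q-high cells. Of its genes, Mki67, a marker of proliferating cells, had log2 ratios of 0.98 (1.81 without the barcodes with Krt8 at 100 CPM or more) and -0.69, Top2a of 0.69 and -0.59, Birc5 (survivin) of 0.84 and -0.68, Cenpf of 0.94 and -0.99 and Ube2c of 1.06 and -1.10. The G2/M median changed sign under 3 alternatives given below. Ube2c stood at 54.4 and 114 CPM here and at 137 and 63.9 CPM in C1q-high cells.

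Icam1, an adhesion ligand for leukocyte integrins, had log2 ratios of -1.02 here and 0.74 in C1q-high cells, with 37.5% of its control UMIs here in 1 barcode, and stood at 0.19 without the barcodes with Krt8 at 100 CPM or more. Ccl5 had -4.75 here and 3.25 in C1q-high cells, and 82.5% of its control UMIs here came from 1 barcode. Without the top barcodes its log2 ratio here was -2.48, and without the barcodes with Krt8 at 100 CPM or more -3.08.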

How the results depend on the processing

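The larger share of Ly6c2-low, C1q-low cells in the PKCi library held its direction under 10 alternatives, with log2 ratios from 0.80 to 1.19 (1.01 as reported). Of 435 values of single named genes under alternatives, 432 kept their direction. The 3 others were Mastl at 0.77 with C1q under 0.1%, 0.54 without cells with 0 UMIs of Ptprc and 0.31 without its top barcode. Part of the 435 values could not change direction. Other minimums of UMIs and CPM alter which genes are read, so the named ratios under them repeat the reported ones. Centring on the median log2 ratio of 0.10 moved all ratios alike, and the smallest named one in size was -0.95 (Cxcl3).

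Counts of genes depended on the filter. Genes at least 1.5-fold higher and lower (636 and 426) became 1783 and 1163 with a minimum of 10 UMIs and 260 and 221 with 200 UMIs. The higher count was 998 without barcodes with Krt8 at 100 CPM or more and 1060 by mean CPM per cell. Against Ly6c2-set-positive cells (117 and 126), it was 405 and 215 with the gate at 0.01% of UMIs, 213 higher by mean CPM per cell and 73 lower without Krt8 barcodes. Against C1q-high cells (246 higher) it was 139 by mean CPM and 125 without Krt8 barcodes. The cause of these moves, beyond the number of genes read, was not tested.

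The G2/M median (0.69) was 0.05 with Lyz2 at 0.5% or more, -0.63 without Scrublet calls, -0.05 by mean CPM per cell and -0.04 without cells over 30000 UMIs, the last chosen after seeing the data. Cycling shares (PKCi minus control, 6.09 percentage points for S phase and 3.64 for G2/M) were -9.57 and -11.65 without thinning. After thinning to 3000 UMIs the S phase share was 13.5% in control and 14.8% in PKCi cells. The G2/M share was then 22.1% in control and 20.5% in PKCi cells, so its difference changed sign. The CXCR2 ligand, haem, macrophage maturation, lipid-associated and other chemokine medians stayed below 0 under all alternatives run. The immediate early median ranged from -0.04 to 0.33. Genes under 20 CPM in both libraries were not read at this depth. No paired analysis was possible because each treatment has 1 library.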
